A study of Mus musculus with 12 samples.

Results

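The Ms4a genes encode small membrane proteins that cross the membrane 4 times, and 9 of them were followed here across the cells of MC38 tumors: Ms4a1, Ms4a4a, Ms4a4b, Ms4a4c, Ms4a6b, Ms4a6c, Ms4a6d, Ms4a7 and Ms4a8a. These 9 were chosen by name, among 26938 gene symbols with a count, and each had its own row in the deposited gene table. MC38 is a mouse colon carcinoma line, here grown under the skin of female hosts. The tumors were profiled by single-cell RNA sequencing from the 5′ end of transcripts, and captured transcripts were counted by their molecular barcodes (UMIs).

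Hosts were C57BL/6J (B6) mice, or F1 mice of B6 and a Collaborative Cross (CC) strain, an inbred strain bred from several founders. The F1 crosses were C57BL/6J x CC001/UncJ, CC002/UncJ, CC007/UncJ, CC036/UncJ, CC075/UncJ, CC079/TauUncJ and CC080/TauUncJ, so every host carried a B6 allele of each member. Hosts were 8 to 12 weeks old when MC38 cells were injected. Each later received a 200 µg dose, either of the isotype control or of aPD1, which blocks the T cell receptor PD-1. Tumors were removed 48 h after this dose and sorted to 90% CD45+ and 10% CD45- cells. There were 48 tumors: 8 of CC001, 4 of CC007 and 6 of each other host, with equal numbers on isotype and aPD1. CC001, CC002 and CC075 are responder strains (20 tumors) and CC036, CC079 and CC080 non-responder strains (18 tumors) by the classification of the study, and B6 and CC007 have no class here.

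Each tumor was 1 specimen of a pool of 4, and 12 pools gave 93126 cells in 27 clusters numbered by the authors. Cells per tumor ran from 53 to 3082, total UMIs per tumor from 88816 to 17713491, and the median cell had 3333.5 UMIs; 10176 cells carried a barcode sequence that occurs in 2 or more pools. The macrophage clusters (2, 4, 5, 9, 15, 17, 19, 21, 26 and 27; 68059 cells) held 6 to 8 of 8 macrophage markers at 100 CPM or more and no T/NK marker. The T/NK clusters (1, 3, 7, 8, 10, 12, 13, 23 and 24; 12021 cells) held 4 to 6 of 8 T/NK markers. Cluster 12 (535 cells) held 7 macrophage markers beside 6 T/NK markers, so T/NK results are also given without it. Cluster 14 (4981 cells) led with Cd209a and Clec10a but held only 2 of 4 markers of conventional type 2 dendritic cells. It also held 6 of 8 macrophage markers, and is called by its number. CPM stands for the UMIs of a gene per 1000000 UMIs of the stated cells. Levels are compared between cells and between hosts within a gene. Genes are not ranked by level, and the share of 1 copy in the summed UMIs of a pair is used only to compare hosts.

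Several members sit in the plasma membrane beside immune receptors and tune their signalling. MS4A1 is CD20, the B cell antigen targeted by rituximab. Ms4a4b is known from T cells, where its product pairs with the costimulatory receptor GITR. Ms4a4a, Ms4a6d, Ms4a7 and Ms4a8a are known from monocytes and macrophages, and human MS4A4A pairs there with the receptor Dectin-1.

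All 9 members lie in a stretch of 537379 bases of chromosome 19 (chr19:11067471-11604849, GRCm38), 5 on the plus and 4 on the minus strand. Ms4a4c (11404770 to 11427246), Ms4a4b (11443553 to 11467055), Ms4a6c (11469366 to 11482192) and Ms4a6b (11516512 to 11531256) follow each other on the plus strand. These are near copies in pairs. The Ms4a4b and Ms4a4c coding sequences have 678 bases each and are identical at 622 (91.7%), with an identical run of 127 bases. Ms4a6b and Ms4a6c are identical at 546 of 642 aligned coding bases (85.05%), with 55 bases as the longest coding run. The start of the protein-coding part is shown for both pairs, because the strain results below turn on them; capitals mark the bases that differ within a pair.
Ms4a4b, chr19:11449919-11450053, plus strand: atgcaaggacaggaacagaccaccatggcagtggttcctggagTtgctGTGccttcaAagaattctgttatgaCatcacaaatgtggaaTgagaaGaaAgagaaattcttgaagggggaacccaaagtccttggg
Ms4a4c, chr19:11414817-11414951, plus strand: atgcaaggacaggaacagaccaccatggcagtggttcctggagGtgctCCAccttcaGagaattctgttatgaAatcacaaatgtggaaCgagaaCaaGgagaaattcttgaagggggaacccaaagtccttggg
Ms4a6b, chr19:11520339-11520485, plus strand: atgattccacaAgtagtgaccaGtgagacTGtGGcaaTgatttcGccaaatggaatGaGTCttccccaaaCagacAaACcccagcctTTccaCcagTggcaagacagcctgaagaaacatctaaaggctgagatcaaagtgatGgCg
Ms4a6c, chr19:11471105-11471251, plus strand: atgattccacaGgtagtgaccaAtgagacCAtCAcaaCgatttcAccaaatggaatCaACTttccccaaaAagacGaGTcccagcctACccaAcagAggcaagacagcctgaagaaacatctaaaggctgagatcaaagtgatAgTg

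In the first coding exon, 9 of 135 bases differ between Ms4a4b and Ms4a4c and 22 of 147 between Ms4a6b and Ms4a6c. Over whole transcripts, 38 of 4661 windows of 90 bases in Ms4a4b (0.815%) and 38 of 1634 in Ms4a4c (2.33%) were identical in the other gene. For Ms4a6b and Ms4a6c the number was 7 windows, 0.27% and 0.4% of them. Reads of any host were aligned to the B6 genome, so a CC allele that differs from B6 can be counted under the wrong copy or not at all, and no allele was read here. Levels of these 4 genes in F1 hosts are uncertain to that extent. Ms4a6d is also close to Ms4a6b, identical at 589 of 731 aligned coding bases (80.6%) with a run of 81 bases. They share 0 windows of 90 bases in B6, but the limit on CC alleles holds for Ms4a6d too. Ms4a6c also overlaps BE692007, a transcript of the opposite strand with 10525 UMIs.

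The 250 bases before the start are also alike within the pairs. They were identical at 172 of 243 aligned bases (70.8%) between Ms4a4b and Ms4a4c. Between Ms4a6b and Ms4a6c 146 of 177 were identical (82.5%, with 146 bases in gaps), and all other pairs of the 7 members with a RefSeq promoter (GRCm38.p6) stood at 50.21% or less. The Ms4a6b and Ms4a6c promoters, which share the longest run, are printed because both genes differ in the T/NK cells of 1 strain below.
Ms4a6b, chr19:11518309-11518558, plus strand: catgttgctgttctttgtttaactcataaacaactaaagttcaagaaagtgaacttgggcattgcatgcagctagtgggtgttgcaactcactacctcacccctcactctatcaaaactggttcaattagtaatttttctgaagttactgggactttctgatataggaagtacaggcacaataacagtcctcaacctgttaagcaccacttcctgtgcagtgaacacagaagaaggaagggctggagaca
Ms4a6c, chr19:11469118-11469367, plus strand: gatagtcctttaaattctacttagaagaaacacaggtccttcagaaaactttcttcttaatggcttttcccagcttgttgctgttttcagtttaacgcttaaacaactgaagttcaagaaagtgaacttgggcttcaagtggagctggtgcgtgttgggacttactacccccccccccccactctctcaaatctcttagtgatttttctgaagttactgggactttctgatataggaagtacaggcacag

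The longest identical run of these promoters has 48 bases. On either strand, none of the 7 members held the interferon gamma site (GAS) TTCNNNGAA, the interferon-stimulated response element (ISRE) or the PU.1 site GAGGAAGT in this window. Among 32851 promoters of the same length the motifs were found in 7.02%, 2.98% and 2.44%.

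Across clusters the family split into myeloid members, a T/NK member, a member shared by both, and CD20. These levels describe clusters that were made from the same cells, so no test is given. Ms4a4b was the T/NK member: 23081 of its 26835 UMIs (86.0%) were in T/NK cells. Its level was 1100 CPM in cluster 7, led by genes such as Lef1 and Tcf7, 799 in cluster 24, led by the NK receptors Ncr1 and Klra7, 785 in cluster 13 and 783 in the Cd8a and Pdcd1 cells of cluster 3. Cluster 8, led by Foxp3, the factor of regulatory T cells, had 247 CPM, and macrophage clusters 3.28 to 33.5 CPM. Cluster 7 stood above cluster 24 in 25 of 27 tumors with enough cells of both. At 1000 UMIs per cell, 43.4% of T/NK cells and 1.27% of macrophages had an Ms4a4b UMI; without thinning the shares were 59.2% (median 1918 UMIs per cell) and 4.08% (median 3481).

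Ms4a6b was the shared member, with 250 CPM (exact Poisson 95% interval 248 to 251) in macrophages and 237 (232 to 243) in T/NK cells. Its leading clusters came from both classes: 480 CPM in macrophage cluster 21, 379 in T cell cluster 7 and 293 in macrophage cluster 26. Cluster 21 was above cluster 7 in 23 of 38 tumors, so their order varied between tumors. Intervals here and below cover counting error only.

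The other myeloid members peaked in different macrophages. Cluster 21, which led with the interferon-induced genes Ifit3b, Ifit3 and Rsad2, had the most Ms4a4c (934 CPM), Ms4a6c (1120) and Ms4a6d (642). It stood above the next cluster in 42 of 43 tumors for Ms4a4c, in 41 of 43 for Ms4a6c and in 20 of 20 for Ms4a6d. Ms4a7 was highest in cluster 26 (879 CPM), which led with Cxcl13 and Fcrls and had Ms4a7 itself among its leading genes, and was above cluster 27 (527 CPM) in 43 of 45 tumors. Cluster 4, led by Ace and Adgre4, separated the members. It had 407 CPM of Ms4a4c and 866 of Ms4a6c, next to cluster 21 for both genes. For Ms4a7 it had 31.4 CPM, far below the 879 CPM of cluster 26.

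Ms4a4a was at 342 CPM in cluster 4, 328 in cluster 21 and 299 in cluster 9, and cluster 4 was above cluster 21 in 20 of 43 tumors, so the top of its order was not separated. Ms4a8a, with 6140 UMIs in all, led in cluster 9 (48.6 CPM), led by Lyve1 and Cd163, and was above cluster 4 (39.1 CPM) in 14 of 19 tumors. Cluster 14 expressed Ms4a4c (256 CPM) and Ms4a6c (361 CPM) and had 13.4 CPM of Ms4a7.

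Ms4a1 had 330 UMIs in all, of which 192 were in cluster 25 (249 cells), and 39.0% of the cells there had a UMI against 0.0926% of macrophages. Median depths were 1532 and 3481 UMIs per cell. Cluster 25 held all 6 B cell markers but also 4 macrophage and 3 MC38 markers and was left unnamed. Plasmacytoid dendritic cells (cluster 18) had 36.9 CPM of Ms4a1, with 0 UMIs in 3 of 6 tumors with enough cells. This cluster held 4 of 4 markers of its class but also 2 B cell and 5 macrophage markers. The immunoglobulin gene Iglc3 was among its leading genes. An Ms4a1 UMI was found in 21 of its 458 cells.

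**Figure D1:**
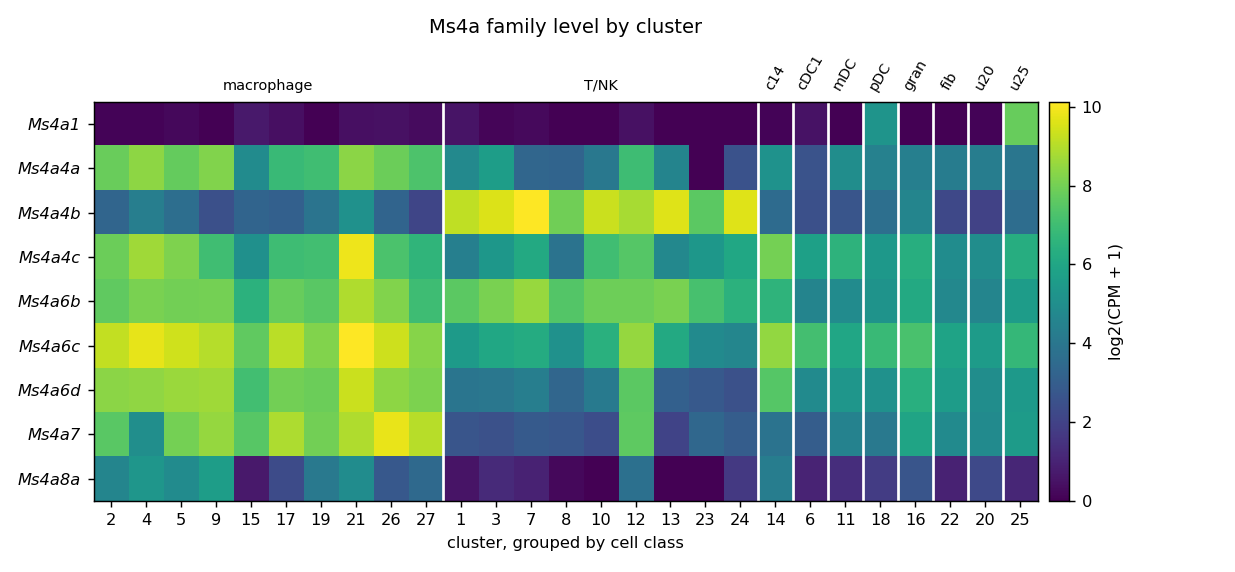
Level of each member (rows) in each of the 27 clusters (columns), as the color of log2(CPM + 1); white lines part the cell classes (c14 cluster 14, mDC migratory dendritic cells, gran granulocytic, fib fibroblast, u20 and u25 unnamed clusters 20 and 25). Ms4a4b is bright in the T/NK block from 1100 CPM in cluster 7 and dark in macrophages, Ms4a7 drops to 31.4 CPM in macrophage cluster 4, and Ms4a1 is seen mainly in cluster 25.

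The genes most alike in pattern over the 27 clusters, by Pearson r of log2(CPM + 1), followed the same lines. For Ms4a4b they were Fasl (r = 0.97), Sytl3 and Sh2d1a, genes of killer and helper T cells. For Ms4a7 they were the complement gene C1qc (0.97), Apoe and C3ar1, and for Ms4a6d the Fc receptor Fcgr1 (0.97), Lyz2 and Ctsc. Ms4a6c ran with Milr1 (0.95), Ms4a4a with Gm26861 (0.92) and the chemokine receptor Cx3cr1 (0.90), Ms4a8a with Mfsd7a (0.91) and Ccl24, and Ms4a1 with Igkv2-109 (0.99), an immunoglobulin gene. Ms4a4c (Gm5431, 0.84) and Ms4a6b (Gm27008, 0.86) had no partner above 0.9. Clusters share libraries and depth, so these values carry no p.

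The study was built to compare responder with non-responder strains. Class belongs to the strain, but the class fits hold no term for strain and count each tumor. Their SEs and p-values, here and below, measure the spread between tumors and not that between strains of a class. With counts summed per strain, no member passed by class in macrophages or T/NK cells. In macrophages, 1 of 8 members tested passed in this comparison: Ms4a4b was higher in responder strains, by 1.11 ± 0.29 (SE) on the log2 scale (edgeR quasi-likelihood test, adjusted p = 0.0158, 38 tumors). Of all 11427 genes tested 6.39% passed, and 1 of 8 members is too few to set against that share. Ms4a4b ranged from 5.44 to 72.7 CPM (median 9.37) in the 20 responder tumors and from 4.38 to 11.7 CPM (median 7.59) in the 18 non-responder tumors. The groups overlapped: 9 responder tumors, among them all 6 of CC002, exceeded the highest non-responder value.

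Leaving out CC002 changed the size of the difference, to 0.21 ± 0.17 (adjusted p = 0.535). As each pool was left out it stayed between 0.91 and 1.29, though it did not pass without pool 3 (0.98, adjusted p = 0.0534) or pool 5 (0.91, 0.0905). It did not pass either without CC036 (1.03, adjusted p = 0.0763), without CC079 (1.00, 0.11) and with pools as a block (0.70 ± 0.29, adjusted p = 0.131). Within pools 1 to 5 it was 1.12 ± 0.42 (adjusted p = 0.198) and within pools 8 to 12 1.12 ± 0.44 (0.192). In isotype tumors alone it was 0.96 ± 0.43 (adjusted p = 0.666, where 0.254% of genes passed) and in aPD1 tumors 1.27 ± 0.40 (adjusted p = 0.0508, 6.41%).

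The other 7 members differed between the classes by -0.08 to 0.19 on the log2 scale, and none passed (adjusted p = 0.316 to 0.875). The class median of the 8 members was 0.13, against -0.01 over all genes. Ms4a6c, for example, ran from 496 to 848 CPM in responder and from 427 to 750 CPM in non-responder tumors (0.14 ± 0.08, adjusted p = 0.316). Ms4a1, with too few counts for the model, gave 17 UMIs in responder and 19 in non-responder macrophages of isotype tumors, and 16 and 12 with aPD1.

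In T/NK cells 1 of 7 members passed, and it was another one: Ms4a6b was higher in responder strains, by 0.49 ± 0.13 (adjusted p = 0.0326; 2.13% of genes passed). The makeup of the T/NK cells moved with the class: cluster 3 made up a mean of 31.5% of them in responder and 10.3% in non-responder tumors, cluster 8 16.3% and 29.4%, and cluster 24 9.60% and 15.5%. Ms4a6b stood at 270.1 CPM in cluster 3, 170 in cluster 8 and 89.6 in cluster 24. Cluster 7, the T/NK cluster with the most Ms4a6b (379 CPM), made up less of the responder tumors, a mean of 20.4% against 25.5%. In the largest T/NK cluster alone (cluster 7) its difference was 0.15 ± 0.19 (adjusted p = 0.907), and the part of the makeup in the pooled difference was not tested. Ms4a4b, the T/NK member, differed by 0.17 ± 0.15 (adjusted p = 0.677). The Ms4a6b difference was 0.54 ± 0.13 without cluster 12 (adjusted p = 0.0197) and 0.32 ± 0.14 without CC002 (adjusted p = 0.325). It passed in 4 of the 10 fits that each leave out 1 pool, and was lost without pool 2, 3, 4, 5, 9 or 11 (adjusted p = 0.0661 to 0.109). The call was also lost with scaling by total UMIs (0.066), without the 2 tumors of 1 animal identifier (0.0587), without tumors of under 500 cells (0.0574), without CC036 (0.0901) and without CC080 (0.173), in all in 16 of 27 settings. In cluster 14 none of 6 members passed (0.412% of genes did). Ms4a8a was the largest difference there, 1.14 ± 0.36 (adjusted p = 0.172). In all cells of a tumor summed, none of 8 passed with both treatments together (edgeR, 3.23% of genes did; Ms4a4b 0.73 ± 0.33, unadjusted p = 0.0326, adjusted p = 0.288).

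Split by treatment, Ms4a4b of all cells summed passed in aPD1 tumors, and was the only one of the 8 members tested to do so. It ran from 34.9 to 276 CPM (median 84.6) in 10 responder tumors and from 10.2 to 57.2 CPM (median 34.2) in 9 non-responder tumors, and 8 of the 10 exceeded every non-responder tumor. The difference was 1.68 ± 0.48 (adjusted p = 0.0481, where 2.42% of genes passed). In isotype tumors it was -0.21 ± 0.47 (adjusted p = 1.00, 0.232%), and the test of whether the 2 differ did not pass (1.89 ± 0.66, adjusted p = 0.714). The T/NK share of cells, which holds most Ms4a4b, was 6.57 to 35.6% (median 13.4) in the responder and 1.72 to 11.7% (median 5.49) in the non-responder aPD1 tumors. Within T/NK cells of aPD1 tumors Ms4a4b ran from 377 to 1198 CPM (median 722) in responder and 350 to 884 CPM (median 592) in non-responder strains. It did not pass between the classes there. The sum alone does not tell more T/NK cells from more Ms4a4b per cell, and the part of each was not tested.

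**Figure D2:**
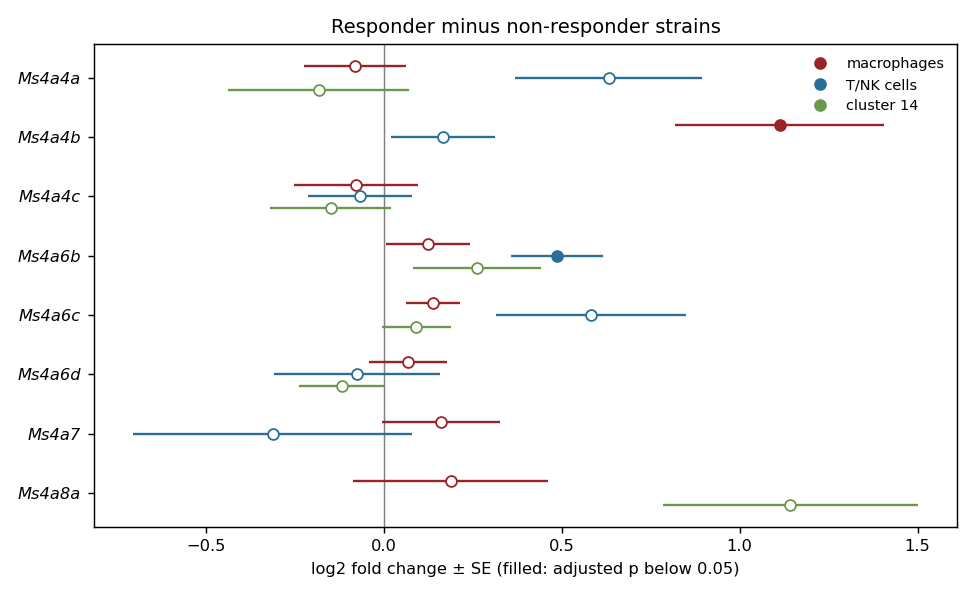
Difference between responder and non-responder strains for each member, as log2 fold change with its SE (bars), in macrophages, T/NK cells and cluster 14; filled points passed at an adjusted p under 0.05. Only Ms4a4b in macrophages (1.11) and Ms4a6b in T/NK cells (0.49) are filled.

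No member passed with treatment. In macrophages aPD1 against isotype gave 0 of 8 members in responder strains, 0 in non-responder strains and 0 in the test of whether the effects differ (edgeR; 0.0% of genes passed in each, while 793, 90 and 640 of 11427 genes had an unadjusted p under 0.05). Effects on the 8 members were -0.13 to 0.21 in responder strains and -0.35 to 0.09 in non-responder strains, with SEs from 0.10 for Ms4a6c to 0.43 for Ms4a4b. In CC002 macrophages Ms4a4b was 25.1, 29.5 and 72.7 CPM in the 3 isotype tumors and 36.0, 36.4 and 37.1 CPM in the 3 aPD1 tumors. The aPD1 values lay within the range of the isotype values.

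Over all 8 hosts, 6 of 8 members differed in macrophages (F test over the strains), where 53.2% of all genes did, so that a call in this test is common: Ms4a4b (adjusted p = 1.98e-13), Ms4a6b (0.000482), Ms4a4c (0.000808), Ms4a6d (0.00126), Ms4a6c (0.00769) and Ms4a4a (0.0376). Ms4a8a (0.0573) and Ms4a7 (0.109) did not pass. The count was 4 without pool 8 and 8 without pool 7, and is not set against the share of all genes in those fits. Ms4a7 varied within a host, from 121 to 674 CPM in the 6 B6 tumors alone.

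Ms4a4b stood out in CC002. It ran from 25.1 to 72.7 CPM with a median of 36.2 in the 6 CC002 tumors, from 4.83 to 14.98 CPM (median 6.62) in the 6 B6 tumors, and from 3.75 to 21.5 CPM over the 42 tumors of all other hosts. No tumor of another host reached the lowest CC002 tumor. Against B6 the difference was 2.23 ± 0.24 on the log2 scale (adjusted p = 6.48e-09), where 2 of 8 members and 5.78% of genes passed.

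Its near copy Ms4a4c went the other way in the same macrophages. It ran from 100 to 264 CPM (median 133) in CC002, from 205 to 386 CPM (median 287) in B6, and from 142 to 457 CPM over all other hosts. CC002 and B6 overlapped only through the CC002 isotype tumor of pool 12, whose 125 macrophages gave 264 CPM, while the other 5 CC002 tumors lay at or under 160 CPM. With CC036, whose lowest tumors had 142 and 144 CPM, the aPD1 tumors of CC002 in pools 3 (160 CPM) and 12 (145 CPM) overlapped too. Against B6 it fell by 1.02 ± 0.23 (adjusted p = 0.00415). The call was lost without pool 3 (adjusted p = 0.0613) or pool 5 (0.0834), and with pool as a block (-1.12 ± 0.68, adjusted p = 1).

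The balance of the pair did not overlap between CC002 and the other hosts. Ms4a4b made up 18.6 to 22.9% of the summed Ms4a4b and Ms4a4c UMIs in the macrophages of each CC002 tumor, and 1.69 to 6.25% in the 42 other tumors. The sum of both genes ran from 125 to 337 CPM (median 170) in CC002 and from 150 to 472 CPM (median 279) in the others, so the groups overlapped in the sum. In CC036, where Ms4a4c was also low (142 to 311 CPM, median 179; -0.69 ± 0.23 against B6, adjusted p = 0.0593), the Ms4a4b share was 2.32 to 5.01%.

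**Figure D3:**
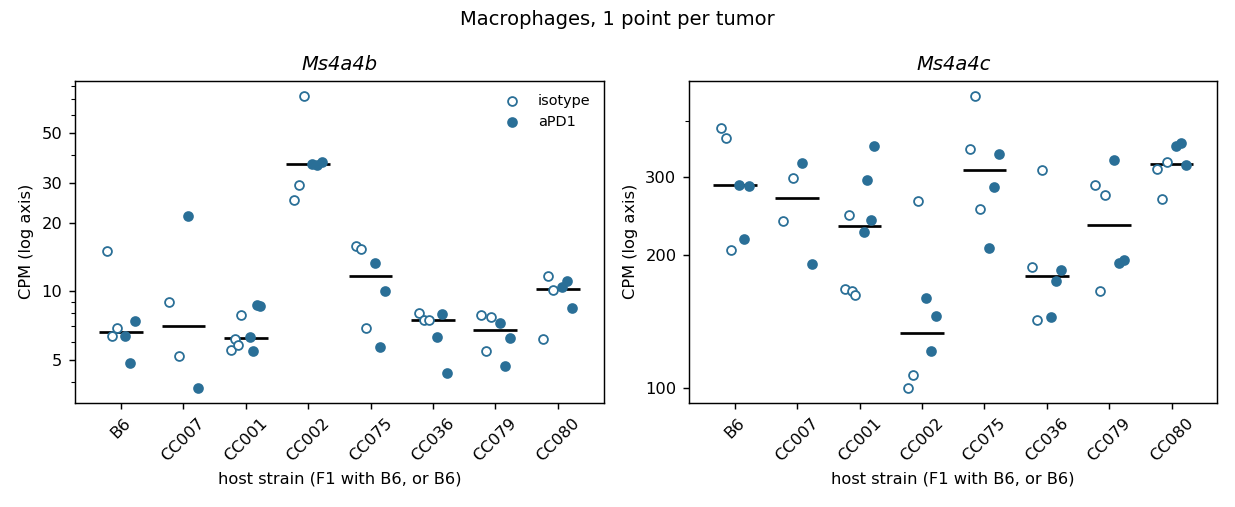
Ms4a4b and Ms4a4c in macrophages, in CPM on a log axis, with 1 point for each tumor (open isotype, filled aPD1) and a bar at the median of each host. All 6 CC002 tumors sit at 25.1 CPM or more of Ms4a4b, above the 42 others, and the CC002 median of Ms4a4c, 133 CPM, is the lowest of the 8 hosts.

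Since CC002 and B6 tumors share no pool, CC002 was also set against its partner strain in the same pool. In pool 3 the partner was CC080, in pool 5 CC079 and in pool 12 CC001. Ms4a4b in isotype macrophages was 25.1 CPM against 6.17 in pool 3, 29.5 against 7.68 in pool 5 and 72.7 against 7.84 in pool 12. In aPD1 macrophages it was 36.4 against 10.4, 36.0 against 6.22 and 37.1 against 8.58 CPM. CC002 was higher in 6 of 6 pairs, by 2.20 ± 0.18 with pool as a block (adjusted p = 5.3e-05, 12 tumors), where 2.14% of genes passed. Ms4a4c was lower in 5 of 6 pairs (-0.95 ± 0.26, adjusted p = 0.119). Ms4a4a was lower than in the partners by 0.66 ± 0.12 (adjusted p = 0.0183) and Ms4a6d by 0.42 ± 0.10 (0.0457). Neither of these passed against B6, and the partner strains had the highest means of all hosts for both. Ms4a4a means were 279 (CC080), 269 (CC001) and 236 CPM (CC079), beside 190 in B6 and 167 in CC002. Ms4a6d means were 337, 425 and 421 CPM in the same order, beside 306 in B6 and 290 in CC002. In the fit of all strains with pool as a block, which reaches B6 only through other strains, the Ms4a4b difference from B6 was 2.81 ± 0.66 (adjusted p = 0.222).

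T cell RNA in CC002 macrophages lay within the range of the other hosts, with a higher median. The T cell genes Cd3e, Cd3d, Cd3g and Trbc2 summed to 1.28 to 9.02 CPM (median 6.25) in CC002 macrophages. In the others they summed to 0.53 to 30.2 CPM (median 3.69). In CC002 the macrophage level of Ms4a4b was 5.77 to 11.6% of its level in T/NK cells of the same tumor, against 0.286 to 2.92% in the 42 others, of which 1 had under 20 T/NK cells. The T/NK share of cells was 11.8 to 36.3% (median 20.3) in CC002 and 1.72 to 45.7% (median 9.93) in the others. The T cell genes above were at 0.0399 to 0.249% of their T/NK level in CC002 macrophages and at 0.0143 to 1.11% in the others. The part of T cell RNA in the Ms4a4b difference was not tested. CC002 had the highest Ms4a4b in 8 of the 9 macrophage clusters compared, and CC007 had it in cluster 19 (33.8 CPM against 30.5). CC002 against the range of the 7 other hosts was 26.6 against 2.09 to 8.17 CPM in cluster 2, 45.9 against 5.23 to 8.95 in cluster 5, 62.7 against 10.3 to 20.4 in cluster 4, and 30.5 against 4.33 to 6.80 in cluster 26. In the interferon cluster 21 it was 128 against 19.9 to 40.5 CPM, and cluster 14 had 29.9 against 6.33 to 10.5. These values are pooled over the tumors of a host. By tumor, cluster 14 of CC002 (12.98 to 46.8 CPM, 5 tumors) overlapped that of CC075 (6.81 to 43.5 CPM, 5 tumors). Ms4a4c was lowest in CC002 in clusters 2, 4, 5, 14, 17, 19, 21, 26 and 27, but not in cluster 9. In cluster 21 it was 512 against 885 to 1034 CPM.

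In T/NK cells the same strain stood apart in the other pair. Over all hosts 4 of 7 members differed (26.9% of genes did): Ms4a6c (adjusted p = 2.82e-10), Ms4a6b (0.00539), Ms4a4c (0.0106) and Ms4a4b (0.0124). With pool as a block 2 members passed, and 2 passed without CC002, again not set against the share of all genes. One tumor with under 20 T/NK cells, of CC007, was left out. Without cluster 12, 4 of 5 members differed (26.1% of genes), now Ms4a6c (adjusted p = 4.96e-15), Ms4a6b (0.0058), Ms4a4b (0.0187) and Ms4a4a (0.024), and Ms4a4c did not pass (0.0839).

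Ms4a6c was 134 to 229 CPM (median 153) in the T/NK cells without cluster 12 of the 6 CC002 tumors, 19.97 to 58.5 CPM (median 38.3) in B6, and 13.2 to 62.7 CPM over the 41 tumors of all other hosts. The groups did not overlap. Against B6 the difference was 2.15 ± 0.23 (adjusted p = 3.84e-09; 0.809% of genes passed), and with cluster 12 kept 1.44 ± 0.22 (adjusted p = 3.39e-05; 0.884%). Against the pool partner it was 2.44 ± 0.22 (adjusted p = 3.19e-06; 3.19% of genes), higher in 6 of 6 pairs. With pool as a block in the fit of all strains, cluster 12 kept, it was 1.22 ± 0.71 against B6 (adjusted p = 1.00).

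Ms4a6b in these cells ran from 282 to 431 CPM (median 357) in CC002 and from 120 to 409 CPM (median 215) in the others, so the groups overlapped. It was higher than in the pool partner in 6 of 6 pairs, by 0.99 ± 0.13 (adjusted p = 7.37e-05), while against B6 it was 0.70 ± 0.22 (adjusted p = 0.149). Ms4a4b tended the other way: 381 to 640 CPM (median 464) in CC002, 548 to 1560 (median 726) in B6, and -0.92 ± 0.27 against B6 (adjusted p = 0.0911). Against the pool partner it was -0.11 ± 0.16 (adjusted p = 0.852). Neither Ms4a4b difference passed.

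**Figure D4:**
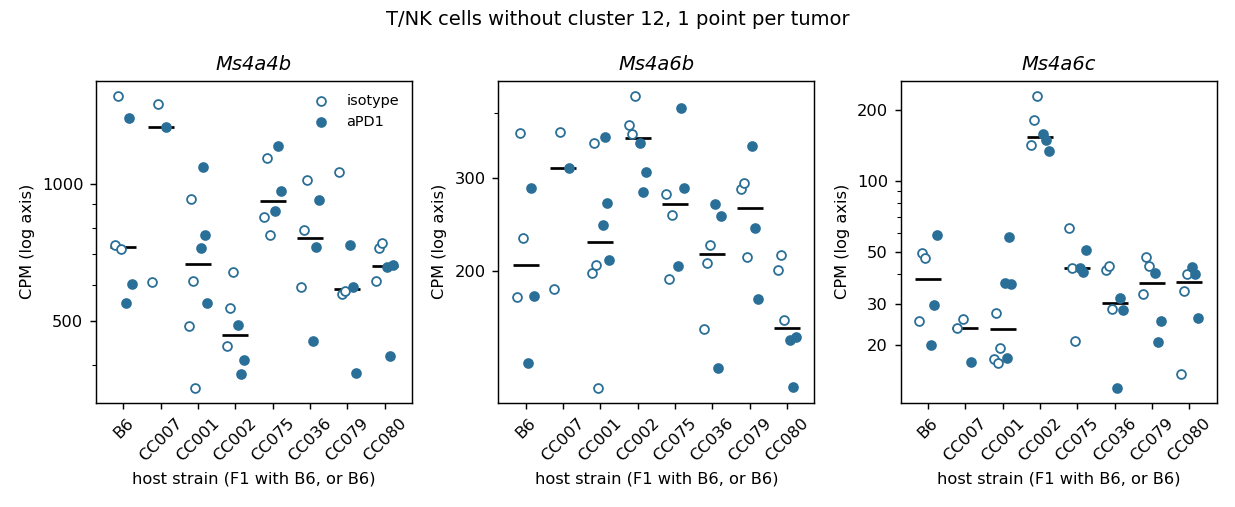
Ms4a4b, Ms4a6b and Ms4a6c in T/NK cells without cluster 12, in CPM on a log axis, with 1 point for each tumor (open isotype, filled aPD1) and a bar at the median of each host. Ms4a6c lies at 134 CPM or more in the 6 CC002 tumors and at 62.7 CPM or less in the 41 others, whereas Ms4a4b and Ms4a6b overlap between hosts.

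Macrophage RNA in CC002 T/NK cells lay within the range of the other hosts. The 8 macrophage markers summed to 119 to 212 CPM (median 143) in CC002 T/NK cells and 42.0 to 360 CPM (median 142) in the others, which is 0.719 to 1.53% and 0.302 to 3.89% of their level in macrophages of the same tumor. Ms4a6c was at 21.6 to 30.3% of its macrophage level in CC002 and at 2.08 to 9.71% in the others. Ms4a6d, a macrophage member in the same locus, was at 2.17 to 9.01% and 0 to 9.76%.

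The Ms4a6c difference was seen across T cell clusters. It was 181 CPM in CC002 against 19.05 to 42.6 in the 7 other hosts in cluster 3, 201 against 41.4 to 70.9 in cluster 7, 90.03 against 18 to 30.7 in cluster 8 with Foxp3 and 232 against 0 to 46.7 in cluster 13. In cluster 24 with its NK receptors, CC002 had 4 Ms4a6c UMIs (9.34 CPM, exact Poisson 95% interval 2.54 to 23.9), below the 16.6 to 47.5 CPM of the others. Ms4a6b in cluster 24 was 252 CPM in CC002 against 56.4 to 106 CPM. Ms4a6b was also highest in CC002 in clusters 1, 3, 10 and 13, but not in clusters 7 and 8. These levels per cluster have no test.

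The CC002 pattern differed between the cell types, and this was tested directly. In the 6 CC002 and 6 B6 tumors, the difference in macrophages minus that in T/NK cells without cluster 12 was 3.06 ± 0.39 for Ms4a4b (adjusted p = 0.00621), -1.75 ± 0.31 for Ms4a4c (0.00983), -1.70 ± 0.36 for Ms4a4a (0.0402), -0.87 ± 0.18 for Ms4a6b (0.0164) and -2.08 ± 0.21 for Ms4a6c (3e-07). These 5 of 8 members passed, against 0.629% of genes. The filter on counts was applied to both cell types joined. Ms4a6d, Ms4a7 and Ms4a8a, with too few counts in T/NK cells, entered only through macrophages. That they did not pass is therefore no result about them. The share of all genes has the same limit: 10490 genes entered here and 6801 the T/NK fit without cluster 12. This test and those against the pool partner were added after the CC002 values had been seen.

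**Figure D5:**
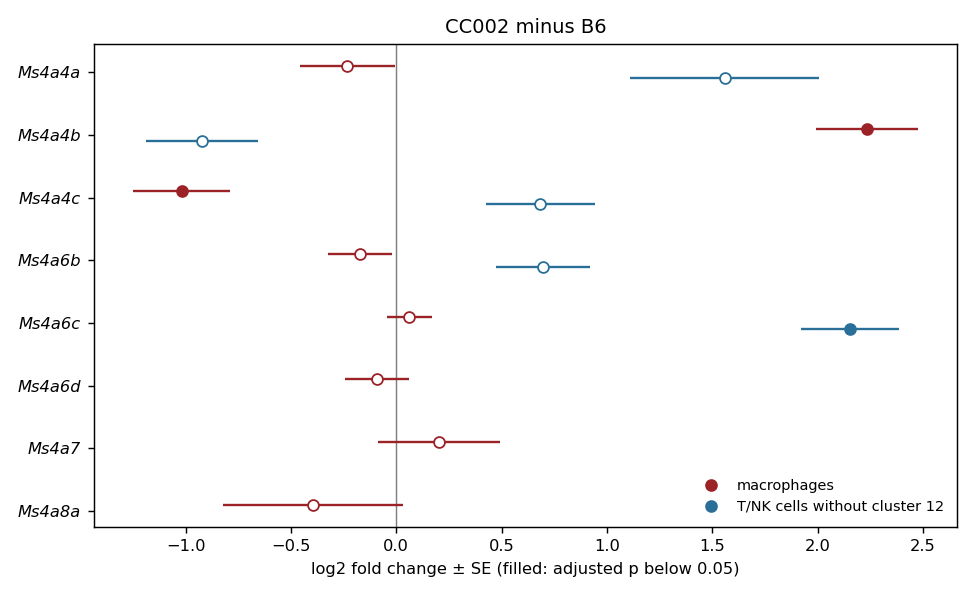
Difference between CC002 and B6 for each member, as log2 fold change with its SE (bars), in macrophages and in T/NK cells without cluster 12; filled points passed at an adjusted p under 0.05. Ms4a4b lies at 2.23 in macrophages and -0.92 in T/NK cells, Ms4a4c at -1.02 and 0.68, and Ms4a6c at 0.06 and 2.15; Ms4a6d, Ms4a7 and Ms4a8a had too few counts in T/NK cells.

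In macrophages of other hosts, other members passed against B6. In CC001 1 of 8 members passed against B6 (17% of genes): Ms4a6d, at 335 to 524 CPM (median 422) against 255 to 405 (median 284), was higher by 0.46 ± 0.14 (adjusted p = 0.0213). In CC079 2 passed (27.5% of genes), Ms4a6d with 0.39 ± 0.15 (adjusted p = 0.0497) and Ms4a8a, which fell by 1.16 ± 0.42 (0.0356). The Ms4a8a difference was -0.78 without pool 2, -0.77 without pool 8 and -0.099 ± 1.13 with pool as a block. In CC036 2 passed (6.14% of genes), Ms4a6b with -0.50 ± 0.15 (adjusted p = 0.0381) and Ms4a6c with -0.37 ± 0.11 (0.0277). No member passed in CC007 (0.972% of genes), CC075 (4.1%) or CC080 (4.14%). Each of the 5 calls in CC001, CC036 and CC079 was lost with pool as a block and without 1 of several single pools (4 pools for each, and 8 for Ms4a6d in CC079), and all 5 rest on the same B6 tumors. Both CC036 calls were also lost with scaling by total UMIs, with no filter and without tumors of under 500 cells. Both CC079 calls were also lost with no filter, and that of Ms4a6d without CC002.

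In cluster 14 the strain test called Ms4a8a and Ms4a6d. These were 2 of 6 members (13.4% of genes), with adjusted p = 0.00412 for Ms4a8a and 0.0198 for Ms4a6d. Ms4a8a, known from alternatively activated macrophages, ran from 3.71 to 126 CPM (median 36.5) in 8 CC001 tumors and was 0 to 16.4 CPM (median 3.04) in 5 B6 tumors, with overlap. CC075 had the next highest mean, 30.6 CPM against 50.2 in CC001, and their ranges overlapped. In CC001 Ms4a8a was higher than in B6 by 2.86 ± 0.63 (adjusted p = 0.0109) and Ms4a6d by 0.65 ± 0.18 (0.0403), where 2.24% of genes passed. In CC079 Ms4a6d was higher by 0.64 ± 0.19 (adjusted p = 0.0303, where 6.66% of genes passed). Neither CC001 nor CC079 shares a pool with B6, so strain and pool cannot be told apart in these calls. The strain fits of cluster 14 were not repeated with pool as a block or without single pools. In macrophages of CC001, by contrast, Ms4a8a was -0.85 ± 0.39 against B6 (adjusted p = 0.122), and the difference between the cell types was not tested.

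The genes around the family and working with it were counted by the same tests. Of 13 other family members, 3 had enough counts in macrophages (Ms4a14, Tmem176a and Tmem176b), and none passed between classes or strains. Of 20 neighbours on chromosome 19, such as those of the T cell surface proteins Cd5 and Cd6, 13 were tested, with 0 passing between classes (median 0.0041, where 6.39% of all genes passed), 1 in aPD1 tumors alone (Ddb1, a DNA damage binding protein, -0.28 ± 0.08, adjusted p = 0.0357) and 0 between CC002 and B6 (median -0.15, against -0.0047 over all genes). Of 10 partner genes 7 were tested, with 0 passing between classes. Against B6, 1 of 7 passed in CC002, beside 5.78% of all genes: Cd44, the hyaluronan receptor, fell by 0.91 ± 0.25 (adjusted p = 0.0231). Of 14 interferon response genes 3 were higher in responder macrophages, Irf8 (0.33 ± 0.08, adjusted p = 0.00472), Cxcl9 (1.16 ± 0.24, 0.00167) and Ifi44 (1.77 ± 0.38, 0.00261), with a list median of 0.37, beside 6.39% of all genes. In isotype tumors alone 0 of 14 passed (edgeR, median 0.12, 0.254% of all genes) and in aPD1 tumors 6 of 14, all higher (median 0.63, 6.41% of all genes). In the test of whether the class difference changed with treatment, 0 of 14 passed, beside 0.0% of all genes. The interferon genes were not followed in the fit without CC002. In CC002 against B6, 2 of 14 interferon genes passed, in both directions, beside 5.78% of all genes. Ifi44 was higher by 2.76 ± 0.25 (adjusted p = 6.39e-11) and Ifit3 lower by 1.12 ± 0.29 (0.0167), with a list median of -0.35. In T/NK cells the signalling adaptor Tyrobp (-0.86 ± 0.21, adjusted p = 0.0163) of 5 partners and Ly6a (-1.23 ± 0.28, 0.0123) of 12 interferon genes were lower in responder strains, beside 2.13% of all genes. Cluster 24, with its NK receptors, made up a mean of 9.60% of these cells in responder and 15.5% in non-responder tumors. Cluster 12, with its macrophage markers, was kept, and the part of the makeup was not tested. By host strain, 7 of 13 neighbours, 7 of 7 partners and 12 of 14 interferon genes passed in macrophages, beside 53.2% of all genes.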

How the data were processed

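The authors aligned reads to GRCm38 (GENCODE vM23) with Cell Ranger, assigned hashtags, filtered and clustered cells (Seurat 5.0.1 per the labels) and deposited raw UMI counts per gene and cell. All 150064855 entries were whole. Counts were summed here per tumor and cell class, tumors of 20 or more cells kept, and genes with a mean of 10 or more UMIs per tumor tested with edgeR 4.0.16 (quasi-likelihood, robust, TMM, R 4.3.3). P-values were adjusted by Benjamini-Hochberg over all genes, threshold 0.05. SE is |log2 fold change| over the root of F. Class fits held 4 groups of class by treatment, strain fits strain plus treatment. DESeq2 1.42.0, other scaling, filters, pools as a replicate block and left-out pools, strains and tumors were alternatives. Tests were checked on simulated counts. These held independent tumors and, for the class test, no strain effects, so they cannot show false class calls from spread between strains. Their spread was the same for every gene, and below that of the macrophage class fit (coefficient of variation 0.247). All 9 members are named; other lists are given by counts, with values only for genes that passed by response class in macrophages and T/NK cells (1 of them in aPD1 tumors alone) or in CC002 against B6 in macrophages. Members and lists were chosen with earlier results of these data known. No doublet caller was run. Labels name separate specimens, 2 of them with 1 animal identifier, so p-values measure the spread between tumors. Response class comes from the study's text. Pool numbers mark a shared library and so pair tumors. Tests without cluster 12, against pool partners and between cell types were chosen after seeing the data. Coding sequences are GENCODE M21.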

Additional observations from a re-analysis of the deposited data

Results flagged for a closer look

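Of 64 groups of 4 to 10 tumors tested for a single value far from the rest, 6 held one in macrophages. Chance alone gives about 1 in 20 only for independent groups of normal values with equal error. These groups mixed isotype and aPD1 tumors of unlike depth, and flags from the same tumor are not independent. The count is therefore not set against that rate. The CC002 isotype tumor of pool 12, with 125 macrophages, was highest of its 6 tumors for Ms4a4a (271 CPM against 130 to 163), Ms4a4b (72.7 against 25.1 to 37.1) and Ms4a4c (264 against 100 to 160). The B6 isotype tumor of pool 7, with 261 macrophages, had 270.4 CPM of Ms4a4a against 149 to 194 in the other 5. The B6 isotype tumor of pool 6 had 14.98 CPM of Ms4a4b against 4.83 to 7.40, and the CC036 isotype tumor of pool 10 had 311 CPM of Ms4a4c against 142 to 187.

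The CC002 difference from B6 was unlike in macrophages and T/NK cells for 5 members, by the test of the difference itself (edgeR with tumor as a block, 12 tumors). Macrophages minus T/NK cells without cluster 12 gave 3.06 for Ms4a4b, -1.75 for Ms4a4c, -1.70 for Ms4a4a, -0.87 for Ms4a6b and -2.08 for Ms4a6c on the log2 scale. Reads of each near-identical pair were assigned by alignment to the B6 genome. The part of read assignment in these values was not tested.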

How the results depend on the processing

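The count of members passing by response class in macrophages, 1, went to 0 with pools as a replicate block, without CC002, CC036 or CC079, in pools 1 to 5 or pools 8 to 12 alone, in the largest cluster alone and with counts summed per strain, and was 0 to 1 as each pool was left out. In T/NK cells it went from 1 to 0 with libraries scaled by total UMIs, without the 2 tumors of 1 animal identifier, without tumors of under 500 cells, without CC002, CC036 or CC080, in pools 1 to 5 or 8 to 12 alone, in the largest cluster alone and with counts summed per strain, rose to 2 without CC001, and was 0 to 1 as each pool was left out. By host strain, 6 members in macrophages became 4 to 8, and 4 in T/NK cells became 7 with no filter, 2 with pools as a block, 2 without CC002 and 3 to 4 as each pool was left out. Counts for aPD1 and for cluster 14 by class were 0 throughout. All these counts stand without the share of all genes in each fit, so a change in them is not a result about the members. With no filter, members with too few counts for the main fit are tested as well.

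Among class differences in macrophages that did not pass, the direction turned in some settings. Without CC001 Ms4a6b was -0.021 and Ms4a6d -0.15; without CC002 Ms4a4a was 0.063 and Ms4a4c 0.13; without CC036 Ms4a6b was -0.077, Ms4a6d -0.072 and Ms4a7 -0.060. Without CC075 Ms4a8a was -0.13, without CC079 -0.064, and without CC080 Ms4a4a was 0.058 and Ms4a4c 0.16. In pools 1 to 5 Ms4a6b was -0.074, Ms4a6d -0.020 and Ms4a8a -0.21, and in pools 8 to 12 Ms4a4a was 0.015 and Ms4a4c 0.37. Ms4a6d with pools as a block was -0.0044, and Ms4a7 in the largest cluster -0.22. As each pool was left out, Ms4a4a ran from -0.16 to 0.012, Ms4a4c from -0.18 to 0.067 and Ms4a8a from -0.0089 to 0.40. The cause was not tested in any of these. The CC002 differences from B6 kept their direction in every setting tried: Ms4a4b 2.02 to 2.81, Ms4a4c -1.29 to -0.86 and Ms4a6c in T/NK cells 1.22 to 2.15, and the first and last lost the call only with pools as a block. DESeq2 was not run for strains against B6. No macrophage cluster held T/NK markers, so the planned fit without such clusters gave no value.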

Other observations

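Ms4a1 and other members with too few counts were compared between classes in 12 exact permutation tests (two-sided, log2 of CPM + 1 per tumor), and all adjusted values were 1. The tests of Ms4a1 in T/NK cells and cluster 14 rested on 0 to 2 UMIs in each class, too few for a difference to pass. The lowest p was 0.0889, for Ms4a4b in cluster 14 of aPD1 tumors (106 UMIs in 10 responder and 56 in 9 non-responder tumors). Among 32 plasmacytoid dendritic cells of CC079 hosts there were 13 Ms4a4b UMIs (132 CPM, exact Poisson 95% interval 70.4 to 226), against 0 to 18.8 CPM in the other hosts. In the pDC of CC002, 26 cells gave 29 Ms4a6c UMIs (272 CPM, 182 to 391) against 32.3 to 163 CPM. Both rest on few cells of few tumors and have no test. In T/NK cells of non-responder strains Ms4a7 was 1.78 ± 0.57 with aPD1 on the log2 scale (edgeR, unadjusted p = 0.00367, adjusted p = 1), with cluster 12, which holds 7 macrophage markers, kept in the sum.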
